A study of Mus musculus with 13 samples.

Results

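Cyclins, cyclin-dependent kinases (CDKs), their inhibitors and the E2F transcription factors were examined as a group of 40 listed genes, together with the phosphatases, mitotic kinases and transcription factors that act beside them. The list was made from what the genes are known to do, but with earlier results of these data known. Counts over it are therefore descriptions. Each gene was read from the array probe set that names it alone, taking the one with the highest mean where there were several. Such a probe set was found for 37 of the 40 genes, and all 37 lay above the floor set for testing, among 12710 genes tested of 22180 with a probe set. The cyclin genes Ccnb1, Ccne2 and Ccnf had no probe set of their own and were not analysed as members.

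The cells were donor CD4+ T cells responding to host tissue antigens in a mouse model of graft-versus-host disease. B6D2F1 hosts received C57Bl/6 splenocytes intravenously. Before transfer these had been stained with CFSE, a dye that each division dilutes. Mice of both strains were purchased at 10 to 12 weeks of age. The 4 vehicle hosts received vehicle on days 0, 1 and 2, the 4 TCDD hosts received TCDD (dioxin) intraperitoneally at 15 µg/kg on day 0 alone, and the 5 Cl-BBQ hosts received Cl-BBQ intraperitoneally at 10 mg/kg on days 0, 1 and 2. Each compound binds the aryl hydrocarbon receptor (AhR), which then acts as a transcription factor, and the title of the series places its question in how AhR signalling reprograms newly activated CD4+ cells. On day 3, at 72 hr, CD4+ cells from spleen and lymph node were enriched with beads and sorted for at least 2 divisions by dye dilution. That gate applied to all 3 groups, sets only a lower limit on divisions, and leaves the share of cells in each phase unmeasured. Each array is labelled a separate biological replicate.

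Progress through the cell cycle is driven by CDKs, which are active only when bound to a cyclin. In G1, D-type cyclins with CDK4 or CDK6 phosphorylate the retinoblastoma (pocket) proteins, which frees E2F factors to switch on genes of DNA replication. Cyclin E with CDK2 then starts S phase, and cyclins A and B with CDK1 carry the cell through G2 and mitosis, until the anaphase-promoting complex (APC/C) marks the mitotic cyclins for destruction. T cells activated by antigen divide several times within days, and inhibitors of the INK4 and Cip/Kip families restrain these kinases.

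The promoters of the members that differed most between Cl-BBQ and vehicle are shown because they hold elements through which cell cycle genes are known to be switched on and off. E2F sites bind E2F factors, the cell cycle homology region (CHR) binds the DREAM and MYB-MuvB complexes, and CCAAT boxes bind NF-Y. The sequences are RefSeq windows of the GRCm38.p6 assembly, which reach from 250 bases before to 50 bases after an annotated start. The 250 bases before the start are printed from 5′ to 3′ along the gene. Capitals mark matches on either strand to the E2F words TTTCCCGC, TTTCGCGC, TTTGCCGC and TTTGGCGC, the CHR (TTTGAA), the CCAAT box (CCAAT) and the AhR core (GCGTG). A match on the opposite strand reads as the reverse complement, such as ATTGG for the CCAAT box. The genes are those of the 6 members with the smallest adjusted p against vehicle with Cl-BBQ whose window holds an E2F word or a CHR, with Cdkn1a, which rose, added. Ccna2, also among the 6, had no window in the table.
Cdk1, chr10:69352913-69353162, minus strand: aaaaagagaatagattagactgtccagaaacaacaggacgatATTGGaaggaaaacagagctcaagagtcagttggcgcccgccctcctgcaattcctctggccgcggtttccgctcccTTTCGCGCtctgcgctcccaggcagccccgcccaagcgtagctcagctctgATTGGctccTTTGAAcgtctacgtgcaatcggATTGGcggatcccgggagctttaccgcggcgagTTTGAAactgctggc
Cdc20, chr4:118437344-118437593, minus strand: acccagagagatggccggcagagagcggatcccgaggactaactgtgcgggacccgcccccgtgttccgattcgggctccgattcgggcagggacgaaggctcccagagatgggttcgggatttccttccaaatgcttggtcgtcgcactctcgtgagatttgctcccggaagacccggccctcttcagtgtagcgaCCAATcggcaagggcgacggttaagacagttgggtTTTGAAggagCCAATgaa
Top2a, chr11:99024190-99024439, minus strand: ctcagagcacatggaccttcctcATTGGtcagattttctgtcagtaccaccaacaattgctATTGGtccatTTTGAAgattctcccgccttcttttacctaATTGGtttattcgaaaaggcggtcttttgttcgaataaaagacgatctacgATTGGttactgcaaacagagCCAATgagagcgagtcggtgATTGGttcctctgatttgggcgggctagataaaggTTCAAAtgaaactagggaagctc
Plk1, chr7:122159185-122159434, plus strand: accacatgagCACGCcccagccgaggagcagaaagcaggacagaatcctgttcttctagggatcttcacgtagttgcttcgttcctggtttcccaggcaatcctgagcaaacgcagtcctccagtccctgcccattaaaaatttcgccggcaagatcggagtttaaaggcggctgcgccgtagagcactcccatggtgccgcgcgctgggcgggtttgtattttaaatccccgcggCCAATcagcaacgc
E2f8, chr7:48881597-48881846, minus strand: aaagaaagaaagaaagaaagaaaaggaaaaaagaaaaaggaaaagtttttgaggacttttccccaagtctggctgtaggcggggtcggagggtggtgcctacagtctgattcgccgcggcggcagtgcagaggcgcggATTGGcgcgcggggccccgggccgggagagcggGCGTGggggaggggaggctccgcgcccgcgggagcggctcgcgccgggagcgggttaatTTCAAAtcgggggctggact
Cdkn1a, chr17:29093519-29093768, plus strand: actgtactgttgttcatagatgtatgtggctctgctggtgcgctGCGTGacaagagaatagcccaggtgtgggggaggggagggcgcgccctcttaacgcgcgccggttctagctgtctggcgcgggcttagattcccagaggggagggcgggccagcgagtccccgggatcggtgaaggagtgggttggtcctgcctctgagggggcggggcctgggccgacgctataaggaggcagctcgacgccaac

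The Cdk1 promoter holds 1 E2F word, 2 CHRs and 3 CCAAT boxes in these 250 bases, and that of Top2a 2 CHRs and 6 CCAAT boxes. In Cdc20 the CHR begins 18 bases before the start, in E2f8 20 bases before it, and in Plk1 31 bases after it, beyond the printed stretch. Windows were found for 31 of the 40 listed genes. Of 11 genes of G2 and M with a window, 8 held a CHR (72.7%), against 20.2% of all 27025 genes in the table, and 10 held a CCAAT box, against 41.1%. Of 10 genes of G1/S and S, 6 held an E2F word (60.0%), against 2.6% of all genes, and 3 a CHR. The AhR core was found in 20 of the 31 members and in 35.2% of all genes, in 10 of 17 members lower with Cl-BBQ and in 6 of 10 that were not called. The Cdkn1a window shown holds 1 AhR core and no E2F word, CHR or CCAAT box, and the other Cdkn1a window holds none of the 4. In these counts a gene with several windows held a match where any of its windows did.

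Against vehicle, most genes of G2 and mitosis fell with each ligand, Cdkn1a rose, and most genes of G1 did not pass the test. Of the 37 members, 18 fell and 1 rose with TCDD, while 3.50% of all tested genes fell and 3.21% rose (limma, adjusted p under 0.05). With Cl-BBQ 21 fell and 2 rose, while 6.03% of all tested genes fell and 5.31% rose. The median log2 change of the 37 was -0.45 with TCDD and -0.64 with Cl-BBQ, and that of all tested genes was -0.00089 and -0.0064. All TCDD arrays lay on 1 side of all vehicle arrays for 20 members, against 13.6% of all genes, and all Cl-BBQ arrays did for 23 members, against 12.9% of all genes. The comparisons with vehicle share the 4 vehicle arrays, so they are not independent of each other.

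**Figure D1:**
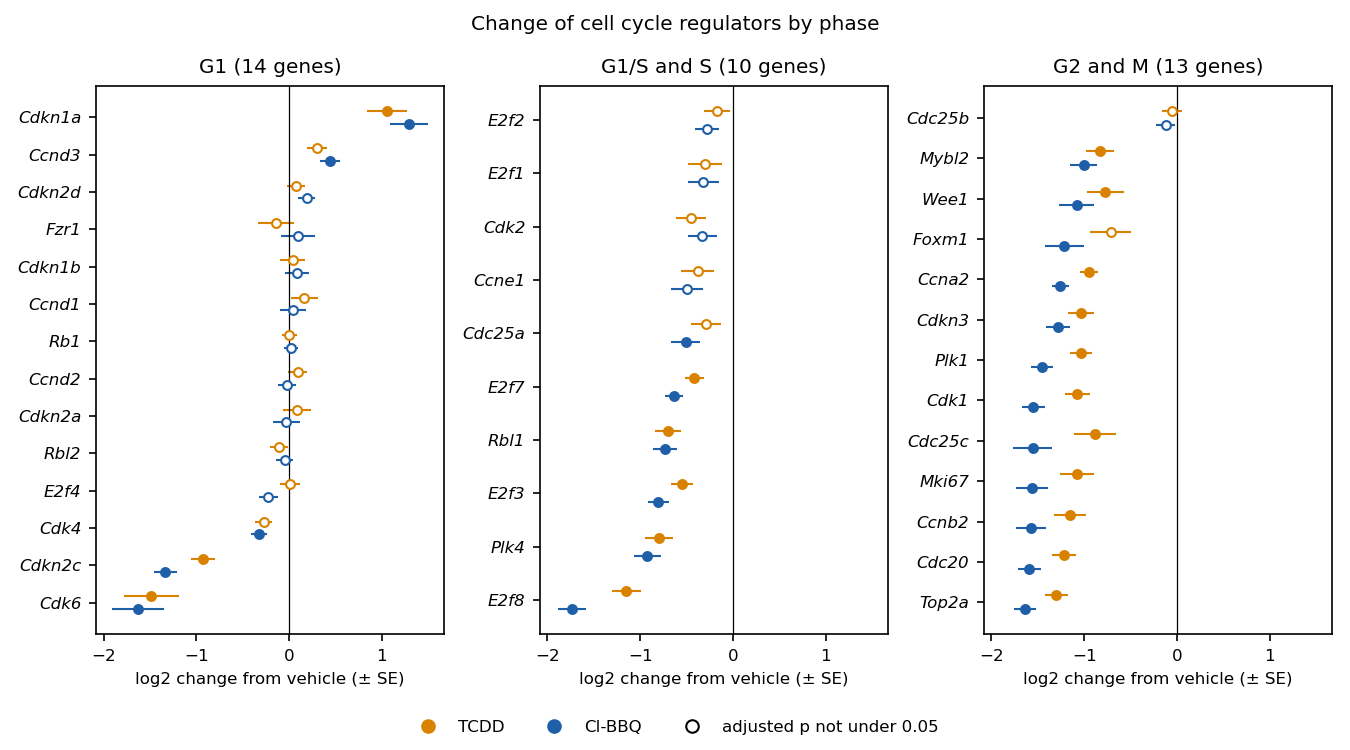
Log2 change from vehicle (horizontal axis, bars are the moderated SE) for 37 cell cycle regulators in panels by phase, with TCDD (4 arrays) in orange and Cl-BBQ (5 arrays) in blue, each against 4 vehicle arrays; filled points passed the test. Of 13 genes in the panel of G2 and M, 11 fell with TCDD and 12 with Cl-BBQ, whereas most G1 genes lie near 0.

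The members were also counted by the phase in which they are known to act. Among 13 genes of G2 and M, 11 fell with TCDD and 12 with Cl-BBQ, with median log2 changes of -1.03 and -1.45. Among 10 genes of G1/S and S, 5 and 6 fell, with medians of -0.44 and -0.57. Among 14 genes of G1, 2 fell and 1 rose with TCDD, and 3 fell and 2 rose with Cl-BBQ, with medians of 0.023 and -0.00035. No test between the phases was made. On each array the median deviation from the vehicle mean was taken over the genes of a phase. For the G2 and M genes it lay between -0.19 and 0.12 on the vehicle arrays, between -1.11 and -0.93 on the TCDD arrays, and between -1.59 and -1.20 on the Cl-BBQ arrays, so the 3 groups did not overlap. For the G1/S and S genes it lay between -0.12 and 0.15 on the vehicle arrays, between -0.57 and -0.41 on the TCDD arrays, and between -0.69 and -0.56 on the Cl-BBQ arrays, where the ranges of the treated groups overlapped. For the G1 genes that median lay between -0.21 and 0.061 on all 13 arrays. The 13 arrays give RNA of a cell mixture, in which fewer cells of a type, or fewer cells in a phase, and less RNA per cell cannot be told apart.

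**Figure D2:**
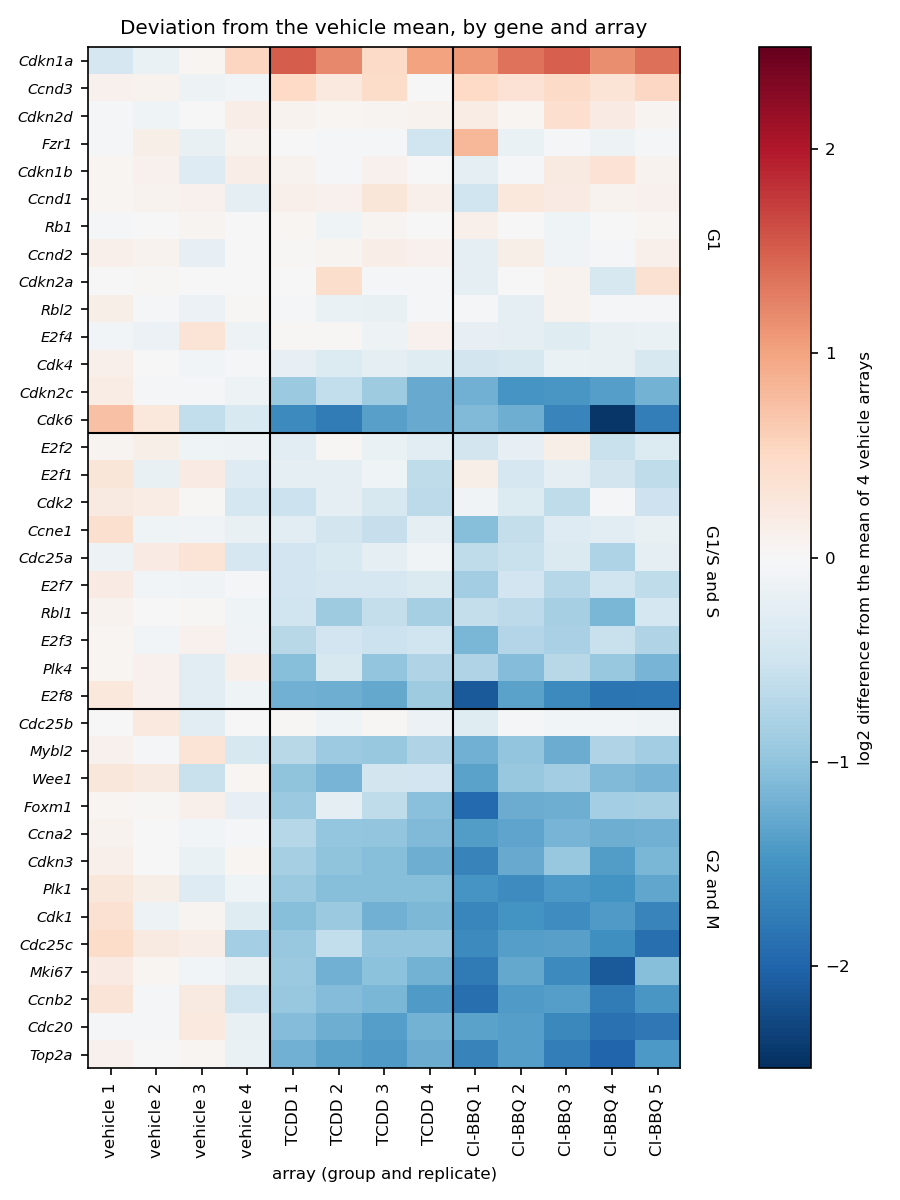
Colour map of the log2 difference of each gene on each array from the mean of the 4 vehicle arrays, with genes in rows grouped by phase and the 13 arrays in columns; blue is lower and red is higher. The G2 and M rows are blue across all TCDD and Cl-BBQ arrays except for Cdc25b, and the Cdkn1a row is red there.

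Members from the D-type cyclins and their kinases, which receive growth signals in G1, did not move together. Cdk6, a catalytic partner of the D-type cyclins, fell most in this class. Its log2 expression was 8.29, 7.81, 6.94 and 7.17 in the vehicle arrays, 5.95, 5.81, 6.20 and 6.30 in the TCDD arrays and 6.44, 6.33, 5.90, 5.12 and 5.82 in the Cl-BBQ arrays. Every treated array was below every vehicle array, although the vehicle arrays themselves differed by more than 1 log2 unit. The change was -1.49 ± 0.30 (SE) with TCDD and -1.63 ± 0.28 with Cl-BBQ, which is 2.80-fold and 3.09-fold lower (limma, adjusted p = 0.0058 and 0.0011). Cdk4, the other kinase of this class, had values of 8.86, 8.73, 8.67 and 8.71 with vehicle, 8.53, 8.39, 8.50 and 8.44 with TCDD and 8.27, 8.34, 8.57, 8.56 and 8.34 with Cl-BBQ. All treated arrays were below the vehicle arrays, and the difference was far smaller than for Cdk6. It was -0.28 ± 0.093 with TCDD (adjusted p = 0.11), which did not pass, and -0.33 ± 0.088 with Cl-BBQ (adjusted p = 0.026). The Cl-BBQ call was lost without vehicle replicate 1 (adjusted p = 0.088), vehicle replicate 2 (0.057), or Cl-BBQ replicates 1 (0.051), 2 (0.057) or 5 (0.061).

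None of the D-type cyclin genes was called lower. Ccnd2, a D-type cyclin of lymphocytes, was at 10.37, 10.34, 10.05 and 10.23 with vehicle, 10.27, 10.32, 10.42 and 10.36 with TCDD and 10.02, 10.39, 10.17, 10.21 and 10.38 with Cl-BBQ, with the 3 groups overlapping. The differences were 0.094 ± 0.10 and -0.02 ± 0.10, neither past the test (adjusted p = 0.72 and 0.94). Ccnd3, the D-type cyclin needed for thymocyte expansion, was at 8.37, 8.36, 8.13 and 8.19 with vehicle and 8.76, 8.63, 8.74, 8.60 and 8.78 with Cl-BBQ. Every Cl-BBQ array exceeded every vehicle array, and Ccnd3 rose 1.36-fold (log2 change 0.44 ± 0.11, adjusted p = 0.012). With TCDD it was at 8.75, 8.52, 8.71 and 8.28, a difference of 0.30 ± 0.11 that did not pass (adjusted p = 0.15). TCDD replicate 4 was the lowest of these, and without it the difference passed (adjusted p = 0.038). Ccnd1, a D-type cyclin better known from other tissues, had group means between 4.38 and 4.54, just above the floor of 4.31, and differences of 0.16 ± 0.15 and 0.039 ± 0.14. Its 4 TCDD arrays all lay above the 4 vehicle arrays, without a call (adjusted p = 0.65).

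Among the genes of CDK inhibitors, 1 rose, 1 fell and 3 were not called with either ligand. Cdkn1a, which encodes the inhibitor p21 and is a target of p53, was at 5.42, 5.66, 5.88 and 6.37 with vehicle, 7.35, 7.04, 6.30 and 6.84 with TCDD and 6.91, 7.19, 7.33, 7.01 and 7.20 with Cl-BBQ. Every Cl-BBQ array exceeded the vehicle arrays, while TCDD replicate 3 was slightly below vehicle replicate 4. Cdkn1a rose 2.07-fold with TCDD (log2 change 1.05 ± 0.22, adjusted p = 0.0070) and 2.45-fold with Cl-BBQ (1.30 ± 0.20, adjusted p = 5.1e-04). Cdkn2c, which encodes an INK4 inhibitor of CDK4 and CDK6, went the other way. It was at 8.08, 7.85, 7.87 and 7.77 with vehicle, 6.96, 7.28, 7.01 and 6.63 with TCDD and 6.69, 6.42, 6.45, 6.53 and 6.72 with Cl-BBQ. No treated array reached a vehicle array, and Cdkn2c fell by 0.93 on the log2 scale with TCDD (adjusted p = 3.4e-04) and by 1.33 with Cl-BBQ (adjusted p = 3.5e-06).

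The 3 other inhibitor genes were near 0. Cdkn1b, which encodes p27 and keeps resting T cells out of cycle, was at 8.58, 8.65, 8.21 and 8.70 with vehicle, 8.62, 8.49, 8.65 and 8.52 with TCDD and 8.32, 8.51, 8.75, 8.89 and 8.62 with Cl-BBQ. The groups overlapped, and the differences were 0.037 ± 0.13 and 0.084 ± 0.13 (adjusted p = 0.93 and 0.77). Cdkn2d, another INK4 gene, differed by 0.077 ± 0.10 and 0.19 ± 0.092. Cdkn2a, the gene of an INK4 inhibitor and of ARF, was low, with group means of 4.92, 5.00 and 4.89 against a floor of 4.31. It differed by 0.086 ± 0.15 and -0.03 ± 0.15. None of these differences passed the test.

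**Figure D3:**
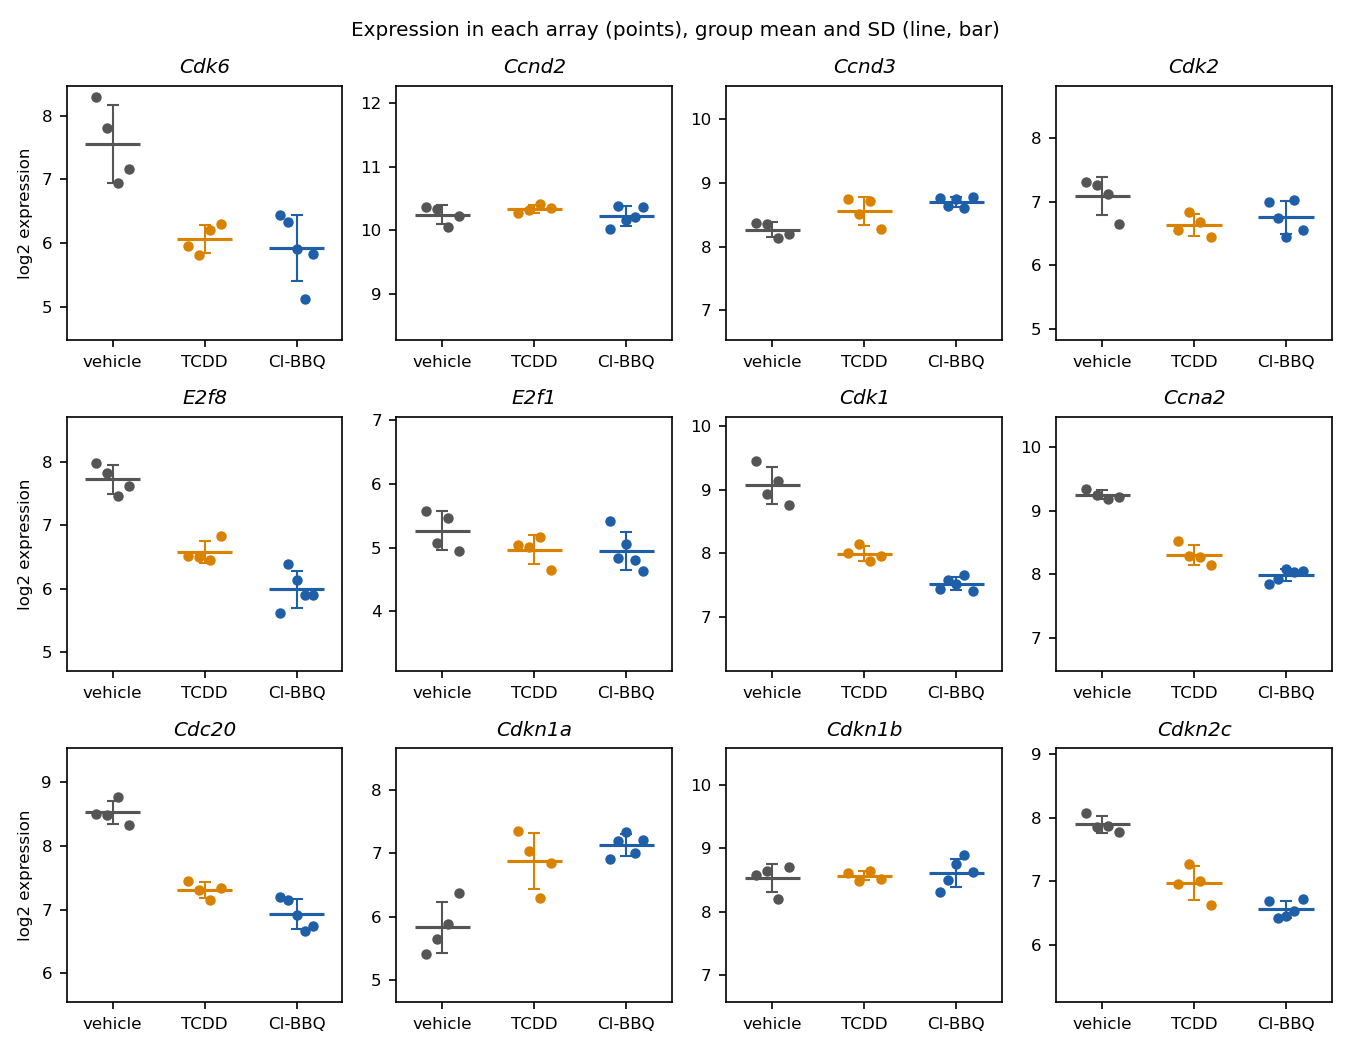
Log2 expression of 12 regulators on each of the 13 arrays (points), with the group mean (line) and SD (bar) for vehicle (4), TCDD (4) and Cl-BBQ (5); each panel spans the same log2 range around its own mean. Treated arrays lie below all vehicle arrays for Cdk6, E2f8, Cdk1, Ccna2, Cdc20 and Cdkn2c, overlap them for Ccnd2, Cdk2, E2f1 and Cdkn1b, and lie above them with Cl-BBQ for Cdkn1a and Ccnd3.

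Among the pocket proteins, which hold E2F factors in check, only Rbl1 passed the test among the 3 measured genes. Rb1, the retinoblastoma gene, was at 8.50, 8.51, 8.59 and 8.51 with vehicle, 8.57, 8.41, 8.59 and 8.54 with TCDD and 8.66, 8.53, 8.42, 8.53 and 8.57 with Cl-BBQ. The 3 groups covered nearly the same range, and the differences were 0.0035 ± 0.082 and 0.019 ± 0.078 (adjusted p = 0.99 and 0.93). On 2 further probe sets, which name Rb1 together with Lpar6 and were not used for Rb1, both ligand means were higher than the vehicle mean. Rbl2, which encodes p130 of quiescent cells, differed by -0.11 ± 0.095 and -0.048 ± 0.09 (adjusted p = 0.64 and 0.83). Rbl1, which encodes p107 and is itself an E2F target in cycling cells, was at 7.65, 7.57, 7.59 and 7.45 with vehicle, 7.07, 6.68, 6.98 and 6.73 with TCDD and 6.97, 6.91, 6.75, 6.42 and 7.13 with Cl-BBQ. All treated arrays were below the vehicle arrays, and Rbl1 fell 1.62-fold and 1.66-fold (adjusted p = 0.0055 and 0.0015).

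Of 6 E2F genes, 3 fell with each ligand, namely E2f3, E2f7 and E2f8. E2f8, an atypical E2F that represses the targets of the others, fell most. It was at 7.98, 7.82, 7.46 and 7.62 with vehicle, 6.51, 6.50, 6.45 and 6.83 with TCDD and 5.62, 6.39, 6.13, 5.90 and 5.91 with Cl-BBQ. The 3 groups did not overlap at all, with Cl-BBQ lowest, and E2f8 was 2.22-fold lower with TCDD and 3.32-fold lower with Cl-BBQ (adjusted p = 2.9e-04 and 1.9e-06). E2f7, its close relative, was at 5.53, 5.26, 5.23 and 5.28 with vehicle, 4.85, 4.91, 4.91 and 4.96 with TCDD and 4.46, 4.85, 4.62, 4.83 and 4.69 with Cl-BBQ. These groups did not overlap either, and the changes were -0.42 ± 0.10 and -0.64 ± 0.10 (adjusted p = 0.022 and 3.9e-04). E2f7 was low, with group means of 5.33, 4.91 and 4.69 against a floor of 4.31. The TCDD call of E2f7 was lost without vehicle replicate 1 (adjusted p = 0.076), or TCDD replicates 1 (0.064), 2 (0.054) or 3 (0.054).

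E2f3, an activating E2F, was at 7.04, 6.92, 7.10 and 6.91 with vehicle, 6.29, 6.53, 6.46 and 6.49 with TCDD and 5.84, 6.27, 6.18, 6.43 and 6.23 with Cl-BBQ. Every treated array was below every vehicle array, with changes of -0.55 ± 0.12 and -0.80 ± 0.11 (adjusted p = 0.0079 and 1.4e-04). The other activating factors did not pass, and of these E2f1 was low, with group means of 5.27, 4.97 and 4.95 against a floor of 4.31. E2f1 was at 5.58, 5.08, 5.46 and 4.95 with vehicle, 5.04, 5.01, 5.17 and 4.64 with TCDD and 5.42, 4.84, 5.05, 4.81 and 4.63 with Cl-BBQ, with groups that overlapped and differences of -0.30 ± 0.18 and -0.32 ± 0.17 (adjusted p = 0.43 and 0.29). E2f2 differed by -0.17 ± 0.14 and -0.28 ± 0.13 (adjusted p = 0.59 and 0.22), the latter with an adjusted p of 0.036 without Cl-BBQ replicate 3. E2f4, a repressive E2F of resting cells, was at 8.48, 8.40, 8.88 and 8.41 with vehicle and 8.34, 8.29, 8.23, 8.36 and 8.37 with Cl-BBQ. All 5 Cl-BBQ arrays were below the vehicle arrays, yet the difference of -0.22 ± 0.10 did not pass (adjusted p = 0.21), and with TCDD it was 0.0085 ± 0.11.

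Of the 3 measured genes that start S phase, none was called with TCDD (limma, 1 at an unadjusted p under 0.05) and 1 with Cl-BBQ, Cdc25a. Ccne1, the cyclin E1 gene, was at 7.73, 7.22, 7.24 and 7.14 with vehicle, 7.07, 6.87, 6.76 and 7.10 with TCDD and 6.26, 6.73, 7.00, 7.05 and 7.15 with Cl-BBQ. The TCDD arrays were all below the vehicle arrays and 1 Cl-BBQ array overlapped them, but differences of -0.38 ± 0.18 and -0.49 ± 0.17 did not pass (adjusted p = 0.29 and 0.088). Cdk2, the kinase partner of cyclin E, was at 7.31, 7.26, 7.12 and 6.66 with vehicle, 6.56, 6.84, 6.69 and 6.44 with TCDD and 7.00, 6.74, 6.44, 7.03 and 6.56 with Cl-BBQ. Vehicle replicate 4 was the lowest vehicle array. The TCDD difference of -0.45 ± 0.16 did not pass (adjusted p = 0.14) except without that array (adjusted p = 0.031), and with Cl-BBQ it was -0.33 ± 0.16 (adjusted p = 0.22).

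Cdc25a, a phosphatase that activates CDK2, was at 6.39, 6.72, 6.85 and 6.09 with vehicle, 6.04, 6.13, 6.30 and 6.42 with TCDD and 5.88, 5.96, 6.16, 5.74 and 6.30 with Cl-BBQ. The groups overlapped, and the Cl-BBQ change of -0.51 ± 0.16 was called at an adjusted p of 0.0496, at the edge of the threshold. That call was lost without 11 of the 13 arrays taken singly, with adjusted p between 0.055 (without TCDD replicate 4) and 0.16 (without vehicle replicate 3), and it was kept without vehicle replicate 4 and without Cl-BBQ replicate 5. The call was also lost with no filter on low values (adjusted p = 0.090), array quality weights (0.084) or only the 2 groups compared (0.088). Choosing the probe set with the largest variance (0.0504) or centring arrays on their medians (0.052) lost it too. With TCDD the difference was -0.29 ± 0.16 (adjusted p = 0.39). Plk4, the kinase that starts centriole duplication at the onset of S phase, fell 1.74-fold with TCDD and 1.90-fold with Cl-BBQ (adjusted p = 0.0042 and 4.7e-04). It was at 7.10, 7.16, 6.79 and 7.19 with vehicle, 6.01, 6.66, 6.08 and 6.32 with TCDD and 6.31, 5.98, 6.37, 6.12 and 5.91 with Cl-BBQ, with all treated arrays below the vehicle arrays.

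The kinase and cyclins of mitosis all fell with each ligand, in 3 of 3 measured genes. Cdk1, the kinase that drives entry into mitosis, was at 9.44, 8.93, 9.13 and 8.75 with vehicle, 8.01, 8.14, 7.87 and 7.95 with TCDD and 7.43, 7.58, 7.52, 7.66 and 7.41 with Cl-BBQ. The 3 groups were fully separate, in the order vehicle, TCDD, Cl-BBQ. Cdk1 was 2.10-fold lower with TCDD (log2 change -1.07 ± 0.13, adjusted p = 1.1e-04) and 2.92-fold lower with Cl-BBQ (-1.55 ± 0.12, adjusted p = 8.8e-07). Its promoter above holds both CHRs within 71 bases before the start. Ccna2, the cyclin A2 gene that acts from S phase into mitosis, was at 9.34, 9.25, 9.18 and 9.22 with vehicle, 8.52, 8.28, 8.26 and 8.14 with TCDD and 7.85, 7.92, 8.08, 8.03 and 8.04 with Cl-BBQ. Here too the groups were separate and in the same order, with changes of -0.94 ± 0.10 and -1.26 ± 0.092 (adjusted p = 2.4e-05 and 3.8e-07).

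Ccnb2, a B-type cyclin, was at 10.01, 9.64, 9.90 and 9.19 with vehicle, 8.73, 8.59, 8.54 and 8.26 with TCDD and 7.80, 8.27, 8.31, 7.94 and 8.23 with Cl-BBQ. All treated arrays were below the vehicle arrays, and Ccnb2 was 2.22-fold and 2.98-fold lower (adjusted p = 6.6e-04 and 1.3e-05). The probe set that names Ccne2 together with Ints8 averaged 6.74 in the vehicle, 5.90 in the TCDD and 5.77 in the Cl-BBQ arrays. The set that names Ccnf together with Mir5134 averaged 5.77, 4.96 and 4.76. Which of the named genes gave these signals cannot be told apart.

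Of the 4 genes of CDK phosphatases and Wee1, 3 fell with each ligand and Cdc25b was called with neither. Cdc25c, a phosphatase that activates CDK1, was at 7.08, 6.85, 6.78 and 5.79 with vehicle, 5.69, 6.01, 5.64 and 5.64 with TCDD and 5.03, 5.25, 5.26, 5.09 and 4.73 with Cl-BBQ. Vehicle replicate 4 stood about 1 log2 unit below the other vehicle arrays and overlapped the TCDD arrays. Cdc25c fell 2.94-fold with Cl-BBQ (adjusted p = 1.4e-04) and 1.84-fold with TCDD (adjusted p = 0.026). For Cdc25c the TCDD call was lost without vehicle replicates 1 (adjusted p = 0.087), 2 (0.081) or 3 (0.077), or TCDD replicates 1 (0.065), 3 (0.072) or 4 (0.069). Wee1, the kinase that opposes it by inhibiting CDK1, was at 6.44, 6.40, 5.61 and 6.22 with vehicle, 5.17, 5.00, 5.72 and 5.69 with TCDD and 4.83, 5.23, 5.30, 5.06 and 5.00 with Cl-BBQ. The TCDD arrays overlapped vehicle replicate 3, and the changes were -0.77 ± 0.20 and -1.08 ± 0.19 (adjusted p = 0.028 and 0.0011). The TCDD call of Wee1 was lost without vehicle replicates 1 (adjusted p = 0.092), 2 (0.089) or 4 (0.066), or TCDD replicates 1 (0.086) or 2 (0.093).

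Cdkn3, a phosphatase that acts on CDKs, was at 8.12, 8.01, 7.84 and 8.05 with vehicle, 7.17, 6.99, 6.93 and 6.79 with TCDD and 6.34, 6.74, 7.05, 6.61 and 6.86 with Cl-BBQ. It fell by 1.03 on the log2 scale with TCDD and by 1.29 with Cl-BBQ, with all treated arrays below the vehicle arrays (adjusted p = 2.3e-04 and 9.4e-06). Cdc25b, another CDK-activating phosphatase, was the member of G2 and M that was called with neither ligand. It was at 8.25, 8.47, 7.96 and 8.25 with vehicle, 8.26, 8.13, 8.26 and 8.09 with TCDD and 7.92, 8.18, 8.16, 8.16 and 8.13 with Cl-BBQ, and the groups overlapped. The differences were -0.049 ± 0.11 and -0.12 ± 0.10 (adjusted p = 0.88 and 0.54).

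Plk1, the polo kinase that promotes mitotic entry and spindle assembly, was at 8.78, 8.65, 8.17 and 8.39 with vehicle, 7.56, 7.44, 7.42 and 7.44 with TCDD and 7.02, 6.93, 7.07, 7.01 and 7.19 with Cl-BBQ. The 3 groups were separate, and Plk1 was 2.05-fold lower with TCDD and 2.74-fold lower with Cl-BBQ (adjusted p = 7.4e-05 and 8.0e-07). Of the transcription factors that switch on mitotic genes, Mybl2, the B-MYB subunit of MYB-MuvB, was at 6.97, 6.83, 7.23 and 6.48 with vehicle, 6.19, 5.97, 5.92 and 6.12 with TCDD and 5.68, 5.89, 5.63, 6.13 and 6.02 with Cl-BBQ. All treated arrays were below the vehicle arrays, with changes of -0.83 ± 0.15 and -1.01 ± 0.14 (adjusted p = 0.0032 and 2.4e-04). Foxm1, a forkhead factor of G2, was at 7.35, 7.31, 7.42 and 7.08 with vehicle, 6.37, 7.04, 6.66 and 6.25 with TCDD and 5.35, 6.05, 6.08, 6.45 and 6.46 with Cl-BBQ. All TCDD arrays were below the vehicle arrays, yet the difference of -0.71 ± 0.22 did not pass (adjusted p = 0.074), whereas Foxm1 fell 2.32-fold with Cl-BBQ (adjusted p = 0.0011). The TCDD difference passed in 5 of 23 alternatives. These were without TCDD replicate 2 (adjusted p = 0.037), without Cl-BBQ replicate 1 (0.014), which enters through the shared estimate of the spread, with only the 2 groups compared (0.029), with array quality weights (0.029) and with robust and trended eBayes (0.0499).

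Among the coactivators of the APC/C, Cdc20 fell with each ligand and Fzr1 was called with neither. Cdc20, which works with the complex in mitosis, was at 8.51, 8.50, 8.77 and 8.34 with vehicle, 7.44, 7.30, 7.15 and 7.34 with TCDD and 7.20, 7.16, 6.92, 6.67 and 6.74 with Cl-BBQ. All treated arrays were well below the vehicle arrays, and Cdc20 was 2.33-fold and 3.01-fold lower (adjusted p = 4.2e-05 and 8.7e-07). Fzr1, which encodes CDH1 and works with the complex in late mitosis and G1, differed by -0.14 ± 0.19 and 0.094 ± 0.18, with overlapping groups (adjusted p = 0.78 and 0.83). The markers of proliferation fell as well. Mki67, which encodes Ki-67, was at 9.64, 9.49, 9.38 and 9.24 with vehicle, 8.51, 8.23, 8.42 and 8.26 with TCDD and 7.67, 8.16, 7.85, 7.33 and 8.38 with Cl-BBQ. Top2a, the topoisomerase that untangles chromosomes, was at 9.41, 9.33, 9.37 and 9.13 with vehicle, 8.11, 7.96, 7.90 and 8.06 with TCDD and 7.64, 7.92, 7.58, 7.33 and 7.88 with Cl-BBQ. No treated array reached a vehicle array for either gene, and the falls were 2.12-fold and 2.95-fold for Mki67 and 2.47-fold and 3.12-fold for Top2a (adjusted p of 0.0017 and 2.2e-05, and of 1.3e-05 and 3.4e-07).

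Cl-BBQ and TCDD were then compared directly, a comparison of regimens that differ in dose and in days of treatment. No member was called (limma, smallest adjusted p = 0.46), while 0.0236% of all tested genes were, and 14 of the 37 had an unadjusted p under 0.05, as did 6.41% of all tested genes. The difference was toward lower values with Cl-BBQ for 29 of 37 members, including all 13 genes of G2 and M, where its median was -0.37, and for 51.4% of all tested genes. Cdc25c differed most, at -0.67 ± 0.21 (95% interval -1.12 to -0.22), with all 5 Cl-BBQ arrays below all 4 TCDD arrays. E2f8 followed at -0.58 ± 0.15 (-0.90 to -0.26), and Cdk1 was at -0.47 ± 0.12 (-0.74 to -0.21). The Cl-BBQ arrays were also wholly below the TCDD arrays for Ccna2, E2f4, E2f7 and Plk1, in 7 members in all, and for 1.08% of all tested genes. For other members the interval included differences in both directions, as for Cdk6 (-0.14 ± 0.28, -0.75 to 0.46), Cdkn1a (0.25 ± 0.20, -0.19 to 0.68) and Rbl1 (-0.032 ± 0.13, -0.31 to 0.25), so these data do not show that the regimens act alike on them.

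**Figure D4:**
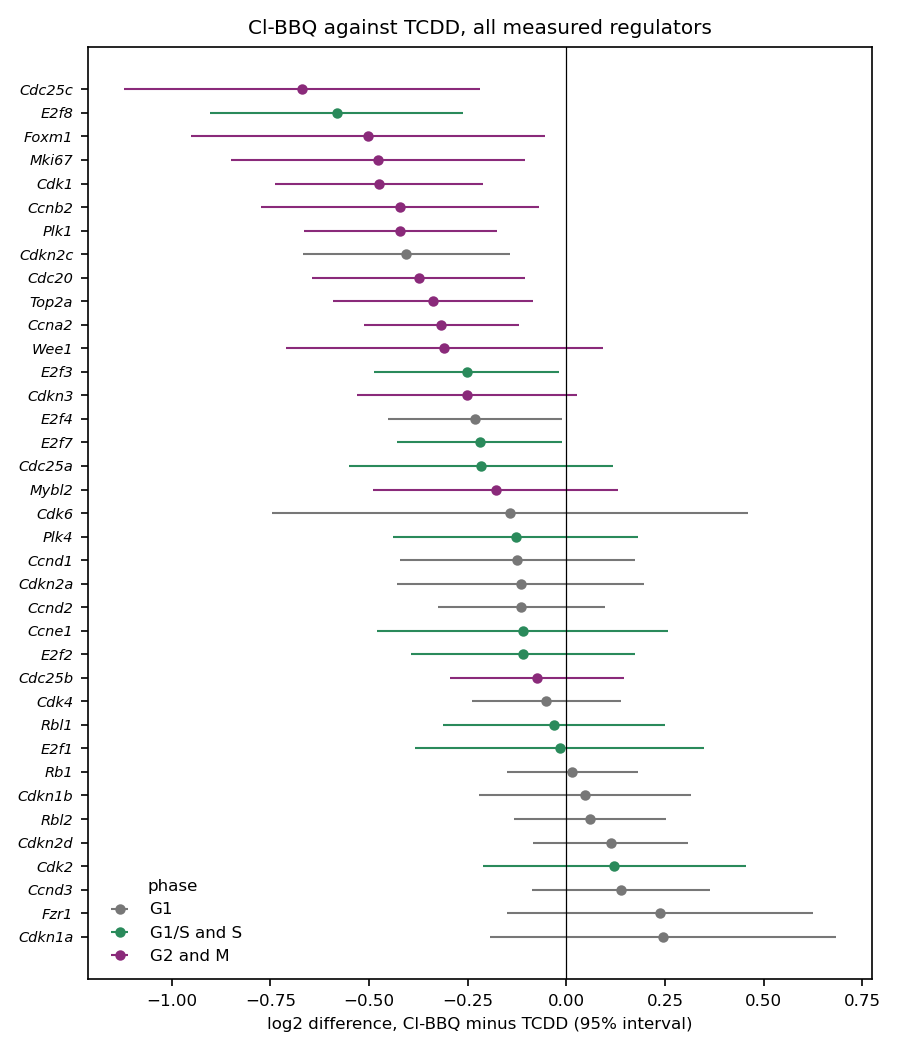
Log2 difference between Cl-BBQ (5 arrays) and TCDD (4 arrays) for 37 cell cycle regulators, ordered by size, with 95% intervals from the same model as bars and colour for the phase; negative values are lower with Cl-BBQ. All 13 points of G2 and M lie below 0, and none of the 37 differences passed after adjustment over all genes.

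Genes around the core machinery, taken from lists written beside the members and also with earlier results known, were counted in the same fit. Their counts stand beside the shares of all tested genes, of which 3.50% fell and 3.21% rose with TCDD, and 6.03% fell and 5.31% rose with Cl-BBQ. Of 15 other mitotic kinases and cell cycle regulators, 8 fell and 1 rose with TCDD, and 10 fell and 1 rose with Cl-BBQ. The median log2 changes of the 15 were -0.63 and -0.89. Aurka, the Aurora A kinase, fell (-0.90 ± 0.13 and -1.32 ± 0.13), as did Birc5, which encodes survivin of the chromosomal passenger complex (-1.03 ± 0.15 and -1.43 ± 0.14), and Mastl, a kinase that restrains phosphatase 2A in mitosis (-0.93 ± 0.14 and -1.11 ± 0.13). The gene that rose was Plk3, a stress-responsive polo kinase (0.77 ± 0.10 and 0.81 ± 0.094). Of 8 CDK inhibitors and CDK-binding genes, 3 fell with each ligand while the medians were 0.049 and 0.055. Those that fell were Cks2 and Cks1b, small proteins that bind CDKs (for Cks2 -0.89 ± 0.20 and -1.25 ± 0.19), and Cdk2ap1. Of 25 other cyclin and CDK genes, 1 fell with each ligand, Cdk19, a kinase of the Mediator complex (-0.58 ± 0.11 and -0.57 ± 0.10), and the medians were 0.042 and 0.073. A count of 1 in 25 is close to the share of all tested genes.

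Of 11 genes of E2F partners and the DREAM complex, which represses cell cycle genes in resting cells, 2 fell with TCDD and 4 with Cl-BBQ, with medians of -0.31 and -0.25. Lin9, a MuvB subunit (-0.84 ± 0.14 and -1.18 ± 0.13), and Rbbp7, a histone-binding protein, fell with each. Tfdp1, the DNA-binding partner of E2Fs, passed with Cl-BBQ (-0.45 ± 0.10) and had a TCDD difference of -0.34 ± 0.10 (adjusted p = 0.071). Of 22 genes of ubiquitin ligases of the cycle, 3 fell with TCDD and 4 with Cl-BBQ, with medians of -0.16 and -0.21. They included Ube2c, the conjugating enzyme of the APC/C (-0.89 ± 0.12 and -1.17 ± 0.11), and Fbxo5, its inhibitor EMI1 (-0.89 ± 0.13 and -0.91 ± 0.12).

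The p53 pathway was listed because Cdkn1a is a p53 target. Among its 11 genes, none was called with TCDD (limma, 1 at an unadjusted p under 0.05). With Cl-BBQ 1 rose, the antiproliferative gene Btg2 (0.55 ± 0.13, adjusted p = 0.012). A count of 1 in 11 cannot be told from the 5.31% of all tested genes that rose with Cl-BBQ. The medians over the list were 0.046 and 0.095. Among 14 genes of growth signals upstream of D-type cyclins, none was called with TCDD (limma, 5 at an unadjusted p under 0.05) and 4 rose with Cl-BBQ, with medians of 0.15 and 0.070. These were Myc, which drives growth of activated T cells (0.73 ± 0.14), Btg1 (0.50 ± 0.11), the quiescence factor Foxo1 (0.36 ± 0.085) and Tob1 (0.64 ± 0.16). Of these, Btg1, Foxo1 and Tob1 are known to restrain proliferation. The rest of the list, among them Foxo3, Klf2, Mxd4 and Mnt, was not called with either ligand.

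The label of the sorted cells was checked against marker genes. The mean log2 level of 7 measured CD4 T cell markers lay between 11.16 and 11.425 on the vehicle arrays. It lay between 11.45 and 11.52 on the TCDD arrays and between 11.47 and 11.54 on the Cl-BBQ arrays, above every vehicle array. All 7 differences were above 0 with each ligand, and Thy1 alone was called, higher with each (0.30 ± 0.079 and 0.36 ± 0.075). Means over the B cell and myeloid lists lay between 3.99 and 4.38, near the floor, with Ms4a1, Itgam, Lyz2, Adgre1, Flt3 and S100a8 below it. The myeloid list had 1 called gene of 3 tested, Cd68, which was higher with each ligand (0.79 ± 0.20 and 0.64 ± 0.19), and the B cell list had none of 4 (limma, 0 and 1 at an unadjusted p under 0.05). The CD8 list lay between 5.28 and 6.12 and the natural killer list between 4.30 and 4.85. Above the floor were Cd8b1 (means of 6.74, 6.48 and 6.88 with vehicle, TCDD and Cl-BBQ) and Klrb1c (6.10, 5.77 and 5.60). Cd8a and Ncr1 lay near it. None of the 2 tested genes of either list was called (limma, 1 in each list at an unadjusted p under 0.05 with each ligand). The part of these differences in the results above was not tested. Array medians were between 4.27 and 4.33, and pairwise correlations between arrays from 0.943 to 0.976.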

How the data were processed

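RNA from sorted CD4+ T cells was measured on 13 single-colour arrays, 4 vehicle, 4 TCDD and 5 Cl-BBQ. The deposited values are log2 expression per probe set, made with RMA per the submitters' processing notes, with version, software and build not given in the sources used here. RMA corrects background, equalises the distribution between arrays and summarises probes, so a shift of all transcripts cannot be seen. Of 41345 probe sets, 23521 had 1 symbol in the platform annotation, 1814 several and 16010 no listed gene. Sets with several symbols named no gene, and each gene was read from its set with the highest mean. A floor was set at the median over the whole table (4.31), and the 12710 of 22180 genes that exceeded it on 4 or more arrays entered the tests.

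Group means of all 13 arrays were fitted together with lmFit and eBayes from limma 3.58.1 under R 4.3.3 (10 residual and 4.22 prior degrees of freedom). Tests were two-sided, with Benjamini-Hochberg adjustment over all tested genes within each contrast, and a call required an adjusted p below 0.05. The scripts were tested on simulated data. SE is the moderated standard error. The number of arrays limits the precision.

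The members and lists were chosen with earlier results of these data known. All members are named, and up to 4 genes of each other list with the smallest unadjusted p. Phases and classes are textbook assignments. Of the listed pathway and marker genes, 13 had no probe set of their own, including all 4 erythroid markers. Promoters were matched by symbol in the RefSeq table (GRCm38.p6), and their motifs are descriptions with no test. Scan dates were not used here. Alternatives were other filters, probe set choices, scalings and variance models, the replicate block, each contrast's groups alone and each array left out.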

Additional observations from a re-analysis of the deposited data

Results flagged for a closer look

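Among 111 combinations of gene and group, 13 held an array whose gap to its nearest neighbour was large for the range of its group, where chance alone gives about 1 in 20. Ccnd1 stood apart in each group, at 4.14 on vehicle array 4, 4.68 on TCDD array 3 and 3.89 on Cl-BBQ array 1. Array 1 of the Cl-BBQ group also stood apart for Cdc25b (7.92, low) and Fzr1 (8.31, high). Vehicle array 1 was high for Ccne1 (7.73) and E2f7 (5.53), and vehicle array 3 was high for E2f4 (8.88) and Rb1 (8.59). TCDD array 2 was high for Cdc25c (6.01) and Cdkn2a (5.36), TCDD array 4 low for Fzr1 (7.00) and TCDD array 1 high for Plk1 (7.56). Of these genes, Cdc25c, E2f7 and Plk1 were called with each ligand, and Plk1 kept its calls in all 23 alternatives.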

How the results depend on the processing

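Over 23 alternatives the number of members called stayed between 16 and 20 with TCDD and between 21 and 23 with Cl-BBQ, and was 0 in the direct comparison. Of the calls, 16 of 19 and 21 of 23 were kept in every alternative in which the gene was tested, and no called member changed sign. Arrays with the same replicate number showed no pairing in their values: their deviations from the group means correlated between -0.059 and 0.075 over 12 pairs. For 1 of 12 arrays the closest array of the other groups over all probe sets had the same number. Whether same-numbered arrays shared a day or a batch was not tested. With the replicate block, 17 members were called with TCDD, 22 with Cl-BBQ and 0 directly, and of all genes 714, 1114 and 0. The calls lost were those of Cdc25c, Wee1 and E2f7 with TCDD and of Cdk4 and Cdc25a with Cl-BBQ. Those of Wee1, E2f7 and Cdk4 were also absent with the block (adjusted p = 0.089, 0.076 and 0.11).

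Signs changed for uncalled differences near 0. Over single arrays left out, the TCDD change ranged from -0.14 to 0.030 for Cdc25b, -0.072 to 0.093 for Cdkn1b, -0.034 to 0.13 for Cdkn2a, -0.037 to 0.12 for E2f4 and -0.018 to 0.043 for Rb1. With Cl-BBQ it ranged from -0.042 to 0.17 for Ccnd1, -0.085 to 0.034 for Ccnd2, -0.024 to 0.16 for Cdkn1b, -0.13 to 0.063 for Cdkn2a, -0.089 to 0.16 for Fzr1 and -0.010 to 0.049 for Rb1. In the direct comparison it ranged from -0.27 to 0.057 for Cdk6, -0.21 to 0.0035 for Plk4 and -0.10 to 0.071 for Rbl1. Array quality weights gave 0.018 for Cdkn2a and -0.043 for Fzr1 with Cl-BBQ and -0.010 for Cdkn1b with TCDD. Centring arrays on their medians gave -0.00605 for E2f4 and -0.011 for Rb1 with TCDD. The cause was not tested. The stricter filter on low values left 33 members, and Ccnd1, Cdkn2a, E2f1 and E2f7 were not tested under it.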

Other observations

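Probe sets shared with another gene did not all follow the member's own set. Rb1, which differed little between groups on its own set, is named with Lpar6, a lysophosphatidic acid receptor gene, on 2 further sets. These stood at 7.77 and 7.93 with vehicle, 9.38 and 9.51 with TCDD, and 9.74 and 9.76 with Cl-BBQ, while another set that names Rb1 alone averaged 4.96 in the vehicle, 5.04 in the TCDD and 5.23 in the Cl-BBQ arrays. Top2a is named with Taf1d on 2 sets, whose differences were -0.29 and -0.10 with TCDD and -0.42 on both with Cl-BBQ, smaller than on the set of Top2a alone. Another set of Mybl2 alone differed by -0.91 with TCDD and -0.98 with Cl-BBQ, close to the set used.

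For 5 members more than 1 array held the same value, compared after rounding to more digits than are printed below. Fzr1 was at 7.45 on 5 arrays of all 3 groups, Cdkn2a at 4.92 on 4, Rbl2 at 7.50 on 3, and E2f7 and Rb1 at 4.91 and 8.53 on 2 each. The cause was not tested.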
